A study of Mus musculus with 14 samples.

Results

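10 growth factor and cytokine receptor genes of muscle progenitors were followed through every kind of library of the study. The members, given as a list of gene symbols, were the fibroblast growth factor receptors Fgfr1, Fgfr2, Fgfr3 and Fgfr4, the hepatocyte growth factor receptor Met, the epidermal growth factor receptor Egfr, the platelet-derived growth factor receptor Pdgfra, the leukaemia inhibitory factor receptor Lifr, the shared cytokine co-receptor Il6st (gp130) and the growth hormone receptor Ghr. They make up 10 of the 14837 genes of the input table. All 10 had a row in the input table, 6 had rows in the m6A-RIP table, 4 had peaks in Igf2bp3-RIP and 3 had peaks in Lin28a-RIP.

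The cells were mouse muscle stem cells (MuSCs) from skeletal muscle, labelled either control or Lin28a positive (Lin28a+). The Lin28a+ MuSCs had been sorted from mice that carry Lin28a-CreERT2 with LSL-tdTomato, a reporter that marks cells in which the Lin28a promoter has driven Cre. How the control cells were obtained is not given in the sources used here, and no treatment, age or sex was given for either group. Both groups were grown on Matrigel in DMEM with serum. There were 14 libraries: 2 input (RNA-seq), 2 m6A-RIP and 2 Igf2bp3-RIP libraries for each group and 2 Lin28a-RIP libraries from Lin28a+ MuSCs only. RIP is immunoprecipitation of RNA with an antibody, here against N6-methyladenosine (m6A), against the m6A-reading protein Igf2bp3 or against the RNA-binding protein Lin28a. The labels do not say that the libraries of a group came from separate animals or cultures, so the p-values measure the spread between these libraries, which may be technical.

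MuSCs lie quiescent beneath the basal lamina of muscle fibres and receive signals through receptors such as these. The FGF receptors, Met, Egfr and Pdgfra are receptor tyrosine kinases, which dimerise on binding their ligand and signal through adaptors to the Ras-ERK and PI3K pathways. Lifr and Il6st form the receptor for leukaemia inhibitory factor, and like Ghr they have no kinase of their own and signal through JAK kinases and STAT factors. In muscle, hepatocyte growth factor and FGFs are best known for bringing quiescent MuSCs into the cell cycle, and Pdgfra is the usual marker of the neighbouring fibro-adipogenic progenitors.

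The totals ranged from 4842915 to 6220960 counts in input, from 21350962 to 31830638 in m6A-RIP, from 9215355 to 34142094 in Igf2bp3-RIP and from 33908110 to 36610494 in Lin28a-RIP. The Igf2bp3-RIP libraries varied more between replicates than the others, with a common biological coefficient of variation of 25.4% per gene against 2.48% in input and 5.74% in m6A-RIP. Myogenic markers were present in every input library, with a summed level of 14840 to 15450 CPM (counts scaled to a library total of 1000000) in control and 14770 to 14990 CPM in Lin28a+. Of those markers, 3 of 10 rose, Myog (log2 fold change 1.86), Cdh15 (0.77) and Pax7 (0.36), and 4 fell, among them Vcam1 (-1.93), Myf5 (-1.21) and Chrna1 (-0.92), where 28.1% of all genes tested rose and 28.7% fell. The RNA level of Lin28a itself was not analysed here.

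Of the 10 receptors, 7 had at least 3 counts in every input library, and the RNA of these 7 lay lower in Lin28a+ MuSCs than in control MuSCs, with both Lin28a+ libraries below both control libraries, as was the case for 38.7% of the 11887 genes with such counts. Fgfr3 reached 3 counts only in its control libraries, and Fgfr2 and Pdgfra had under 3 counts in every library, which gives no direction. Of the 10, 6 had at least 10 counts in every library. In a fit of genes with such counts, these 6 were lower at an adjusted p under 0.05 in edgeR's quasi-likelihood test. Their log2 fold changes ran from -0.64 (Il6st) to -1.46 (Ghr), and 28.9% of all genes in that fit were lower. Values given below are from the fit under the main filter on low counts unless another is named. Under the main filter on low counts Egfr was tested too and was called lower, but it passed that filter only through its control libraries and so had to differ. Across all 11317 genes tested under that filter, 28.7% were lower at the threshold and 56.8% changed in either direction, and the median log2 fold change was 0.01. In these bulk libraries, fewer cells of a type and less RNA per cell cannot be told apart.

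**Figure D1:**
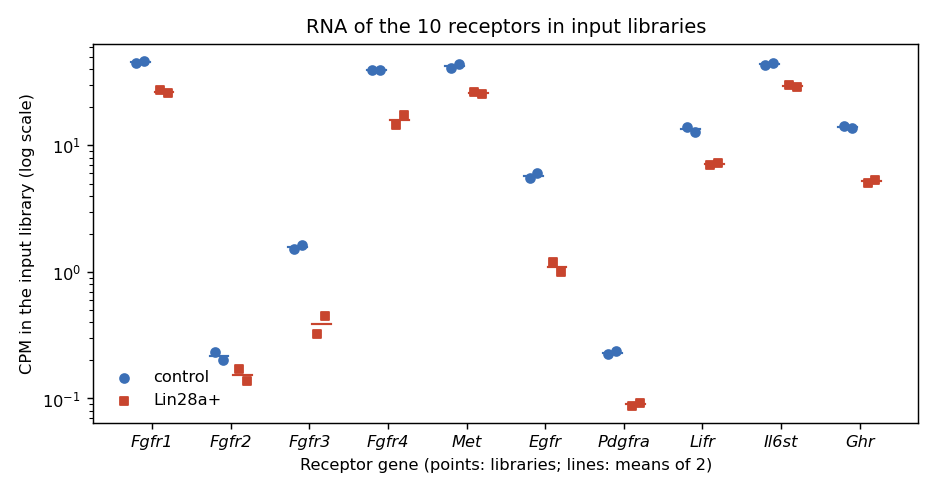
Level of each receptor's RNA in the 4 input libraries, in CPM on a log scale. Circles are control libraries, squares Lin28a+ libraries and lines the mean of 2. For the 7 receptors with at least 3 counts in every library both squares lie below both circles, as for 38.7% of all genes with such counts. Fgfr1, for example, is at 45.0 and 46.3 against 27.2 and 25.9 CPM. Fgfr3 reached 3 counts only in its control libraries. Levels are not scaled to transcript length, so they are not comparable between genes, and Fgfr2 and Pdgfra stand for under 3 counts in every library.

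Among the FGF receptors, Fgfr1, the broadly expressed member of the family, was at 45.0 and 46.3 CPM in control against 27.2 and 25.9 CPM in Lin28a+ input. Its log2 fold change was -0.81 ± 0.05 (SE, adjusted p = 9.75e-05, edgeR). Fgfr4, the member known for its high expression in myogenic cells, was at 39.6 and 39.5 CPM in control against 14.4 and 17.4 CPM in Lin28a+. It fell by 1.34 ± 0.08 on the log2 scale (adjusted p = 8.26e-05), so that the 2 FGF receptors with appreciable counts both fell.

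Fgfr3 was at 1.52 and 1.64 CPM in control against 0.326 and 0.449 CPM in Lin28a+. These values stand for 19 and 4 counts summed over the libraries of each group, a ratio of 4.02 with an exact 95% interval of 1.34 to 16.3 that covers counting error only. The gene had too few counts for the main test. Fgfr2 (0.66666 to 1.2654 counts per library) and Pdgfra (0.44444 to 1.4636 counts) were under 3 counts in every library, so no fold is given for them. With no filter on low counts, edgeR called Fgfr3 (log2 fold change -1.89, adjusted p = 0.0161) but not Fgfr2 (0.20, adjusted p = 0.919, on rounded counts) or Pdgfra (-3.08, adjusted p = 0.203).

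Met, the receptor for hepatocyte growth factor, was at 40.7 and 44.2 CPM in control against 26.6 and 25.7 CPM in Lin28a+ input. The groups did not overlap, and the log2 fold change was -0.74 ± 0.06 (adjusted p = 1.94e-04, edgeR). Egfr, the receptor for EGF, amphiregulin and related ligands, was at 5.48 and 6.01 CPM in control against 1.19 and 0.992 CPM in Lin28a+, or 30.0 and 37.4 counts against 6.04 and 4.81. Its fall of 2.37 ± 0.18 on the log2 scale (adjusted p = 1.65e-04) is given as a description, since the gene passed the filter only through its control libraries. Antisense and other non-coding genes overlap Egfr, among them Egfros, and whether the counting used strand is not given in the sources used here.

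The cytokine and hormone receptors fell as well. Lifr, the subunit that binds leukaemia inhibitory factor, was at 13.9 and 12.8 CPM in control against 7.02 and 7.32 CPM in Lin28a+ (log2 fold change -0.94 ± 0.10, adjusted p = 4.87e-04 in edgeR). DESeq2 gave Lifr nearly the same change but an adjusted p of 0.0649, and with Egfr set aside it called 5 of the 6 receptors, where it called 13.8% of all genes lower. Il6st, the signalling subunit that Lifr pairs with, was at 43.5 and 45.2 CPM in control against 29.8 and 29.0 CPM in Lin28a+ (-0.62 ± 0.05, adjusted p = 1.87e-04). Ghr was at 14.1 and 13.8 CPM in control against 5.08 and 5.33 CPM in Lin28a+ and fell by 1.43 ± 0.09 on the log2 scale (adjusted p = 8.27e-05). Within each of these receptors the gap between groups was wider than the gap between libraries of a group.

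The m6A-RIP table held 14 rows, each a region with counts but no coordinates, for 6 of the receptors: 5 for Fgfr1, 3 for Met, 2 each for Fgfr4 and Il6st, and 1 each for Fgfr3 and Egfr. When the rows of a gene were summed, 4 of the 6 receptors were lower in Lin28a+ at an adjusted p under 0.05 (edgeR). Of all 9416 genes of that table, 33.8% were lower at that threshold. The 4 were Fgfr1, Fgfr4, Met and Il6st, all of which also fell in input. Fgfr3 and Egfr were not called and overlapped between the groups.

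Fgfr1 was at 368 and 378.5 CPM in control against 194 and 198 CPM in Lin28a+. Its log2 fold change of -0.83 ± 0.04 (adjusted p = 3.59e-09, edgeR) came with non-overlapping groups. Of its 5 rows, 4 fell, by 0.61 to 0.88 on the log2 scale, while the remaining row stood at 6.57 and 6.65 CPM in control against 6.15 and 5.90 CPM in Lin28a+ (log2 fold change 0.02 ± 0.18, adjusted p = 0.930). Of all genes in that table, 5.62% had as many rows as Fgfr1 or more, and the median gene had 2.

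Met was at 120.5 and 131 CPM in control m6A-RIP against 67.7 and 65.1 CPM in Lin28a+, a log2 fold change of -0.82 ± 0.05 (adjusted p = 4.34e-08, edgeR), and all 3 of its rows fell, by 0.60 to 0.88. Fgfr4 was at 24.5 and 25.5 CPM in control against 10.1 and 12.6 CPM in Lin28a+ (-1.03 ± 0.13, adjusted p = 1.69e-05), with both rows lower. Il6st was at 8.77 and 10.8 CPM in control against 4.51 and 4.78 CPM in Lin28a+ (-0.96 ± 0.18, adjusted p = 4.51e-04). Of its 2 rows, the one with a change of -0.63 (adjusted p = 0.0232) lost the call in DESeq2 (adjusted p = 0.0638) and without control replicate 1 (0.0512), control replicate 2 (0.105) or the second Lin28a+ library (0.124). In all, 11 of the 14 rows were lower at the threshold, against 31.8% of the 18881 rows of the table.

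Fgfr3 stood at 14.4 and 14.1 CPM in control m6A-RIP against 14.4 and 13.4 CPM in Lin28a+, a log2 fold change of 0.06 with a 95% interval of -0.22 to 0.33 (adjusted p = 0.697, edgeR). Egfr had only 34 and 18 counts in control m6A-RIP and 19 and 37 counts in Lin28a+, and its interval was wide (0.16, 95% interval -0.64 to 0.96). Both genes overlapped between the groups in m6A-RIP, whereas in input they did not. The sign for Fgfr3 depended on the scaling: with library totals in place of TMM factors its value was -0.04.

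Whether the m6A-RIP signal moved differently from the RNA was tested with an interaction term between cells and library kind over the 8053 genes in both tables. Of the 6 receptors, 1 was called: Egfr, whose m6A-RIP change exceeded its RNA change by 2.53 ± 0.45 on the log2 scale (adjusted p = 0.0057, edgeR), where 7.18% of all genes were called and 3.05% in that direction. The share of all genes called was 3.79% to 4.47% without any 1 input library, and Egfr was called without each library in turn. Egfr had few counts in both kinds of library. DESeq2 gave it a difference of 2.55 with an adjusted p of 0.0689, and Egfr left the test when at least 10 counts were required in every library. Fgfr3 gave a difference of 1.99 ± 0.46 (adjusted p = 0.0630), which passed the threshold without the second Lin28a+ m6A-RIP library (adjusted p = 0.0497).

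For the other 4 receptors the difference between m6A-RIP and RNA did not pass the threshold. It was -0.03 for Fgfr1 (95% interval -0.32 to 0.25), -0.10 for Met (-0.36 to 0.17), 0.30 for Fgfr4 (-0.08 to 0.69) and -0.35 for Il6st (-0.71 to 0.01, adjusted p = 0.314). Il6st passed it without m6A-RIP control replicate 1 (-0.51, adjusted p = 0.0430). The intervals for Fgfr1 and Met do not reach the size of the fall in RNA that each showed.

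**Figure D2:**
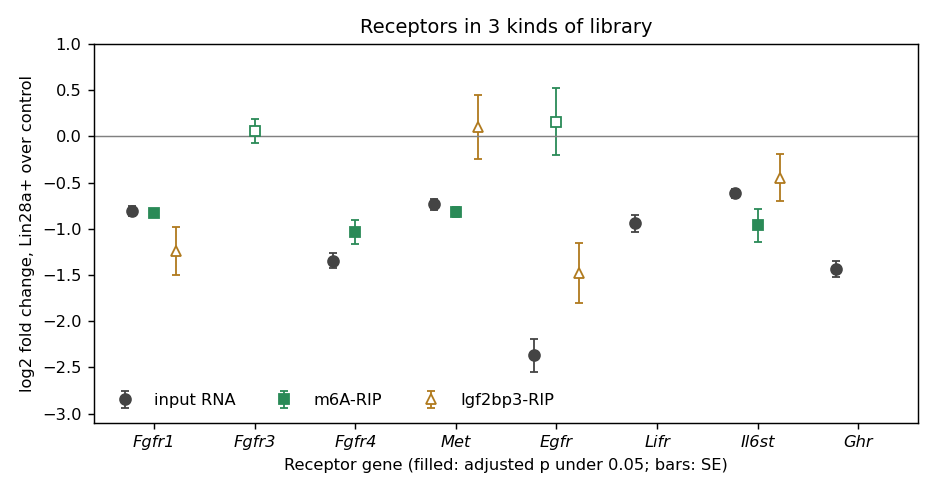
Log2 fold change of each tested receptor, Lin28a+ over control, in input RNA (circles), m6A-RIP (squares) and Igf2bp3-RIP (triangles), with bars of 1 SE. Filled symbols have an adjusted p under 0.05 in edgeR with no replicate block. RNA and m6A-RIP fall together for Fgfr1, Fgfr4, Met and Il6st, m6A-RIP stays near 0 for Fgfr3 (0.06) and Egfr (0.16), and no Igf2bp3-RIP symbol is filled.

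Lin28a-RIP peaks, regions called as enriched in the Lin28a+ cells, lay on 3 of the 10 receptors: 17 on Met, 2 on Il6st and 1 on Fgfr1. Igf2bp3-RIP peaks lay on 4: 15 on Met and 1 each on Fgfr1, Il6st and Egfr. The median gene with a peak had 3 in either table, and 8.16% of the 3493 genes with Lin28a-RIP peaks and 4.09% of the 4527 genes with Igf2bp3-RIP peaks had as many as Met or more. The Lin28a-RIP libraries had no control counterpart, so no comparison between groups was possible for them.

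The Met peaks were spread along the gene, which spans chr6:17463349-17573980 in GRCm38.p6. They were annotated to 5 transcripts over both tables, 3 of them shared and 4 in each table, covered 8831 bases in Lin28a-RIP and 7394 in Igf2bp3-RIP, and were 217 to 2682 and 209 to 2650 bases wide. In Lin28a-RIP, Met summed to 949 and 978 CPM in the 2 libraries. The 2 highest peaks by count, at chr6:17571230-17573911 near the end of the gene (275 and 284 CPM) and at chr6:17491055-17492417 (216 and 217 CPM), held 51.5% of that sum. Per kb of peak the Lin28a-RIP level ran from 43.1 to 159 CPM, with its maximum in the latter peak. Of the 17 Lin28a-RIP peaks on Met, 14 shared at least 1 base with an Igf2bp3-RIP peak and 3 did not. Over the whole Lin28a-RIP table, 52.4% of the 21616 peaks did so. All 15 Igf2bp3-RIP peaks on Met overlapped a Lin28a-RIP peak.

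**Figure D3:**
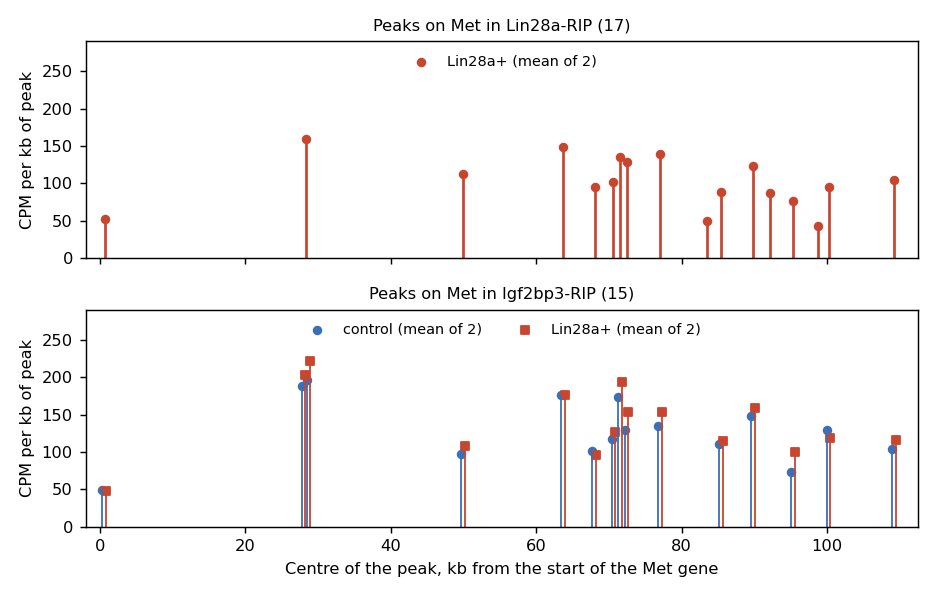
Peaks on Met by the distance of their centre from the start of the gene, in kb, with the mean CPM per kb of peak on the vertical axis. The upper panel has the 17 Lin28a-RIP peaks (Lin28a+ libraries), the lower panel the 15 Igf2bp3-RIP peaks with circles for control and squares for Lin28a+. Of the 17 upper peaks, 14 overlap a lower one, and at the Igf2bp3-RIP peaks the control and Lin28a+ means run from 49.4 to 196 and from 47.4 to 221.5 CPM per kb.

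The first Met peak of each protein began 0.477 kb (Lin28a-RIP) and 0.406 kb (Igf2bp3-RIP) inside the gene span given above: chr6:17463826-17464226 in Lin28a-RIP (20.6 and 21.6 CPM) and chr6:17463755-17464046 in Igf2bp3-RIP (16.2 and 12.7 CPM in control, 16.9 and 10.8 CPM in Lin28a+). The RefSeq promoter window of Met (GRCm38.p6, chr6:17463707-17464006, plus strand), 250 bases before to 50 after the start that RefSeq uses for that window, which lies inside the same span, is printed because these peaks reach into it, with the 181 bases inside the Lin28a-RIP peak in capitals.
Met promoter window: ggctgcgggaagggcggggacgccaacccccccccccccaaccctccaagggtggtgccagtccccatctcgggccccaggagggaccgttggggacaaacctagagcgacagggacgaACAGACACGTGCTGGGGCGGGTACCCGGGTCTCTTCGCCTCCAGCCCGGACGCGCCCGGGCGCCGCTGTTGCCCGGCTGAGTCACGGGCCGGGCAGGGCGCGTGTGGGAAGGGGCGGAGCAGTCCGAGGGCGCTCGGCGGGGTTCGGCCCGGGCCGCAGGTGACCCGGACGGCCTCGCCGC
The Igf2bp3-RIP peak takes in 252 of the 300 bases. The window was 75.7% G and C, against a median of 52.7% over 32851 windows of that length. 2 short motifs were searched on both strands: GGAG, a sequence known to be bound by Lin28 proteins, and GGAC, the commonest core of the m6A consensus. GGAG occurred 2 times on the gene strand and 2 times on the other, and 83.7% of the windows hold it on the gene strand. GGAC occurred 6 times on the gene strand, 2 of them within the capitals, and 2 times on the other, where 65.6% of the windows hold it on the gene strand and 0.31% hold it 6 times or more. These counts describe the letters of a genomic window only.

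Il6st carried Lin28a-RIP peaks at chr13:112494475-112494680 (16.9 and 16.2 CPM) and chr13:112497541-112497745 (9.12 and 8.67 CPM), and the former overlapped its only Igf2bp3-RIP peak, chr13:112494471-112494771. Fgfr1 carried a single peak of each protein near the end of the gene, chr8:25573686-25573916 in Lin28a-RIP (23.0 and 21.8 CPM) and chr8:25573689-25574093 in Igf2bp3-RIP, which overlapped. Egfr had an Igf2bp3-RIP peak at chr11:16912297-16912634, also near the end of the gene, and none in Lin28a-RIP. The other 6 receptors had no peak in either table, which lists called regions only and gives no level for them.

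In Igf2bp3-RIP, none of the 4 receptors was called between Lin28a+ and control at an adjusted p under 0.05 in edgeR with no replicate block. At that threshold 0.287% of the 4527 genes of the table were called, and 0.861% to 1.61% without any 1 library. At an unadjusted p under 0.05 the test named 2 of the 4, Fgfr1 and Egfr, both lower, beside 8.44% of all genes. DESeq2 called 1, Fgfr1 (adjusted p = 0.00527), beside 2.54% of all genes. With a block on the replicate number, edgeR called 2, Fgfr1 (adjusted p = 0.00417) and Egfr (0.0151), both lower, beside 374 of the 4527 genes. No label says what a replicate number marks. By peak, 0 of 18 were called in edgeR with no block, against 0.123% of all peaks. The block called 2, those of Fgfr1 and Egfr, against 1988 of 19465 peaks. With no block, the same 2 had an unadjusted p under 0.05, against 5.22% of all peaks, and DESeq2 called 0 against 1.35%.

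Fgfr1 was at 123 and 163 CPM in control Igf2bp3-RIP against 70.9 and 55.1 CPM in Lin28a+. The groups did not overlap, with a log2 fold change of -1.24 ± 0.26 (adjusted p = 0.203, edgeR), and without control replicate 1 it was called (-1.47, adjusted p = 0.0243). Egfr was at 7.16 and 7.32 CPM in control against 2.46 and 2.81 CPM in Lin28a+, again without overlap (-1.48 ± 0.32, adjusted p = 0.223). Il6st was at 37.8 and 38.6 CPM in control against 34.1 and 23.8 CPM in Lin28a+ (-0.45 ± 0.25, adjusted p = 0.722), so that 3 of the 4 receptors had both Lin28a+ libraries below both control libraries, as 16.9% of all genes of the table did.

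Met was the exception. It was at 784 and 1058 CPM in control Igf2bp3-RIP against 822 and 1201 CPM in Lin28a+, and the groups overlapped. The log2 fold change was 0.10 ± 0.34 (95% interval -0.74 to 0.94, adjusted p = 0.968, edgeR), and it turned negative without control replicate 1 (-0.14) or without Lin28a+ replicate 2 (-0.23). Of its 15 peaks, 11 had a log2 fold change above 0 and 4 below, all between -0.16 and 0.40, and without control replicate 1 or Lin28a+ replicate 2 the number above 0 was 5 or 2.

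Set against the RNA in an interaction model over the 3967 genes in both tables, the Igf2bp3-RIP change of Met was higher than its RNA change by 0.61 ± 0.38 on the log2 scale (95% interval -0.30 to 1.52, adjusted p = 0.391, edgeR). The difference was 0.69 ± 0.34 for Egfr (adjusted p = 0.356), -0.66 ± 0.27 for Fgfr1 (adjusted p = 0.204) and -0.06 ± 0.22 for Il6st (adjusted p = 0.896). Without 1 library the difference ranged from 0.27 to 0.93 for Met and from -0.90 to -0.37 for Fgfr1. None of the 4 was called, against 1.08% of all genes. That share was not stable: edgeR called 0 genes without any 1 input library (492 to 525 at an unadjusted p under 0.05) and 2.24% to 14.4% without any 1 Igf2bp3-RIP library, and none of the 4 was called in any of these fits. At an unadjusted p under 0.05 1 of the 4, Fgfr1, was named, a share near the 24% of all genes, and DESeq2 called 0 against 1.69%. The 95% intervals span more than 1 log2 unit for each of the 4.

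Genes that act with these receptors were taken from 4 lists holding 104 genes. Of the 93 in the input table, 77 had enough counts for the test, and 18 rose and 38 fell in Lin28a+ MuSCs (edgeR, adjusted p under 0.05), where 28.1% and 28.7% of all genes tested did so. DESeq2 called 8 higher and 23 lower, where it called 13.1% and 13.8% of all genes. Of the genes edgeR called, 2 that rose (Pdgfrb and Cntfr) and 3 that fell (Lif, Dusp6 and Etv1) passed the filter on low counts only through the group where they were higher, and so had to differ; their values are given as a description. Of the 70 genes that passed it through both groups, 16 rose and 35 fell.

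Of the feedback inhibitors and target genes of receptor signalling, 19 were tested that passed the filter through both groups. Of these, 12 fell, 3 rose and 4 were not called, where 28.7% of all genes tested fell and 28.1% rose. Their median log2 fold change was -0.45 beside 0.01 for all genes. With Etv1, Dusp6 and Socs3, which passed the filter through control libraries only, the median was -0.89. Etv5, a transcription factor induced by FGF signalling, was at 14.7 and 17.0 CPM in control against 1.90 and 1.28 CPM in Lin28a+ (-3.31 ± 0.18, adjusted p = 6.35e-05). Its relative Etv1 fell by 3.23 ± 0.40 from 2.07 and 2.17 CPM to under 1 CPM, and Dusp6, the phosphatase that dephosphorylates ERK, fell by 2.54 ± 0.14 from 8.74 and 8.76 CPM to 1.63 and 1.497 CPM. The genes that rose were Socs1 (1.08) and Socs2 (0.36), inhibitors of cytokine receptor signalling, and Lrig3 (0.72), a membrane protein related to the Egfr inhibitor Lrig1.

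Of the 10 ligands that passed through both groups, 4 fell and 2 rose, beside 28.7% and 28.1% of all genes tested. Their median was -0.41, and with 10 genes these counts are not read as a direction. Lif, the ligand of Lifr and Il6st, was at 6.28 and 6.24 CPM in control against 0.727 and 0.620 CPM in Lin28a+. It is not among those ligands, since it passed the filter only through control libraries, and its change of -3.13 is a description. The Egfr ligands Areg and Hbegf fell by 2.23 ± 0.23 and 1.55 ± 0.11. The ligands that rose were Fgf21 (0.98 ± 0.26), a circulating FGF hormone, and Pdgfc (0.66 ± 0.04), a ligand of Pdgfra. Hgf, the ligand of Met, was under 1 CPM in every input library and was not tested.

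Of the other receptors and co-receptors, 16 passed through both groups, of which 9 fell, 4 rose and 3 were not called. Their median was -0.51. Among all genes tested, 28.7% fell and 28.1% rose. The heparan sulphate proteoglycans Sdc3 and Sdc4 (syndecans), which present FGFs and HGF to their receptors, fell by 1.95 ± 0.04 and 1.10 ± 0.04, and Il6ra, the interleukin-6 receptor that pairs with Il6st, fell by 0.84 ± 0.26. Cntfr, another partner of Lifr and Il6st, rose by 2.91 ± 0.23 on the log2 scale, from 0.610 and 0.563 CPM to 4.98 and 4.44 CPM. Pdgfrb and Plxnb1 rose by 1.27 ± 0.19 and 0.80 ± 0.10. Cntfr and Pdgfrb passed the filter only through Lin28a+ libraries, so their values are a description. Erbb3, Gpc4 and Gpc1, named here to complete the count, rose by 0.68, 0.78 and 0.17, and like Plxnb1 they passed the filter through both groups.

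Among the adaptors, kinases and STATs, 25 passed through both groups, of which 10 fell, 7 rose and 8 were not called, with a median of -0.08. The share that rose was near that of all genes tested, of which 28.1% rose and 28.7% fell. Stat3, the main STAT downstream of Il6st, fell by 0.96 ± 0.08 from 15.03 and 16.2 CPM to 8.16 and 8.20 CPM. The kinases Braf and Map2k1 of the ERK cascade fell by 0.80 ± 0.08 and 0.78 ± 0.04. Stat5a and Stat5b, the STATs downstream of Ghr, rose by 0.95 ± 0.09 and 1.28 ± 0.09, and the adaptor Gab1, which docks on Met, rose by 0.71 ± 0.08.

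**Figure D4:**
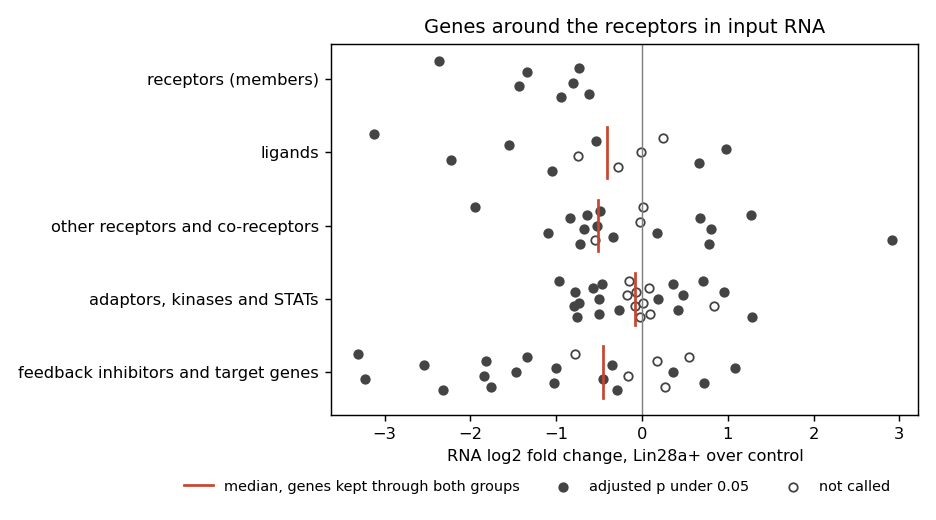
RNA log2 fold change, Lin28a+ over control, of the 7 tested receptors and of the tested genes of the 4 lists, 1 point per gene. Filled points have an adjusted p under 0.05 in edgeR and vertical lines are the median of each list over the genes that passed the filter on low counts through both groups. The receptors all lie below 0 (Egfr passed through control libraries only), the feedback inhibitors and target genes have a median of -0.45, and the adaptors, kinases and STATs lie on both sides of 0 with a median of -0.08.

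Markers of other cell types were read beside these values. Of 10 genes listed as fibro-adipogenic markers, 6 were tested. Col1a2 (-4.71), Thy1 (-1.49) and Tcf4 (-0.80) fell, Ly6a (1.61) rose, and Col1a1 (0.09) and Col3a1 (-0.05) were not called. How well each listed gene, Tcf4 among them, marks these cells was not tested. The summed level of this list was 172 to 180 CPM in control against 138 to 140 CPM in Lin28a+. Most of it was Col3a1, at 118 and 120 CPM in control against 117 and 119 CPM in Lin28a+. Col1a2 went from 41.1 and 42.6 CPM to 1.95 and 1.265 CPM. The defining markers Pdgfra and Cd34 had under 3 counts in every library. Thy1 and, in the next list, Rgs5 and Pdgfrb passed the filter through 1 group only. Of 8 pericyte and smooth muscle markers, 4 were tested: Pdgfrb (1.27), Acta2 (0.46) and Notch3 (0.41) rose and Rgs5 (-3.35) fell, and their sum was 5463 to 5543 CPM in control against 7684 to 7698 CPM in Lin28a+, nearly all of it Acta2. The endothelial markers summed to under 2 CPM and the macrophage markers to under 6 CPM in every library. The part of these markers in the fall of the receptors was not tested.

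The gene whose levels followed each receptor most closely over the 4 input and 4 m6A-RIP libraries was taken by root mean square distance of log2(CPM + 1) values, centred within each kind of library, among 7511 genes. It was Xirp1 for Fgfr1 (distance 0.0215), Nsun3 for Met (0.0277), Fam160a1 for Fgfr4 (0.0375), Slc39a14 for Il6st (0.0387) and Myom2 for Egfr (0.0970). Myom2 shared with Egfr a lower RNA level (log2 fold change -1.62) beside an m6A-RIP change near 0 (0.14). These are descriptions over 8 libraries that share 2 groups.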

How the data were processed

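Input, m6A-RIP, Igf2bp3-RIP and Lin28a-RIP libraries of control and Lin28a+ MuSCs were compared. The authors removed adapters and low-quality bases and aligned reads with HISAT2 (2.0.4), and the submitters' processing notes also name FastQC, MACS2 (1.4.3), DESeq2 (1.42.0) and the builds GRCh38 and mm10. The paper's methods name GRCh38, a human assembly, whereas all identifiers are of mouse genes and every receptor peak lay within its gene in GRCm38.p6, so mouse positions are given. The input values, as deposited by the authors, are estimated counts per gene that are not whole numbers, in part multiples of a simple fraction for a gene, and the counter is not given in the sources used here. The RIP tables, as deposited by the authors, hold whole-number counts per region, with positions for the Igf2bp3 and Lin28a peaks and none for m6A-RIP. Whether peaks were called on pooled libraries is not given in the sources used here.

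Genes were matched by Ensembl or Entrez identifier to RefSeq symbols (at least 99.96% of each table). Lin28a+ columns of input and m6A-RIP carry no replicate number, and both of the former are headed as m6A, so they were assigned by group. Over 8053 genes the Lin28a+ input columns correlated at 0.949 with control input and at 0.515 to 0.520 with Lin28a+ m6A-RIP.

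Input counts were rounded. Within each kind of library, filterByExpr, TMM scaling and the quasi-likelihood test of edgeR (4.0.16, R 4.3.3) with Benjamini-Hochberg adjustment over all features were used, and differences from input were tested as an interaction. Alternatives were DESeq2 (1.42.0), other scalings and filters, leaving out each library and a block on the replicate number. CPM were taken over all counts of a table. The fits were tested on simulated counts with known changes, and the other steps were not. Intervals of log2 fold changes are t intervals scaled to the p-value of the test, and intervals from counts cover counting error only. The receptors and gene lists were chosen with earlier results of these data known. The rule for naming genes took all 10 receptors, up to 3 genes per list and direction with the largest change past the threshold, and the nearest gene of each receptor.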

Additional observations from a re-analysis of the deposited data

How the results depend on the processing

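Of 563 alternative values for 67 results, 521 stayed within the tolerance set for them: the same direction and side of the threshold for a tested change, within 1.5 times for a count, 1 SD for a level and the same sign for the lowest and highest Met peak. Such counts still moved, as in RNA, where DESeq2 lost Lifr and the fit with no filter added Fgfr3, and without 1 library the m6A-RIP rows called were 10 to 11 and the pathway genes 49 to 54 (56 with all libraries). In input RNA, with Egfr set aside because it passed the filter only through control libraries, 6 of 6 receptors were called with each library left out, with other scalings and with both other filters, and 5 with DESeq2. Counting Egfr, 7 were called without each library. The log2 fold changes without 1 library ranged from -2.48 to -2.28 for Egfr and from -0.64 to -0.60 for Il6st. The number of receptors called in Igf2bp3-RIP was 1 with DESeq2 and 0 to 1 without 1 library. With the replicate block it was 2 by gene, beside 374 of all 4527 genes, and 2 by peak, beside 1988 of all 19465 peaks. The receptors called were Fgfr1 (adjusted p = 0.00417 by gene, edgeR) and Egfr (0.0151). The same-numbered Igf2bp3-RIP libraries deviated together (r = 0.703 over 19465 peaks, 2 pairs), but no label says what a number marks. For input, m6A-RIP and differences from input, no paired analysis was possible because Lin28a+ input and m6A-RIP columns carry no replicate number.

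For m6A relative to input the number called was 0 with DESeq2, 0 with at least 10 counts in every library and 1 to 2 without 1 library. For the 77 pathway genes DESeq2 called 31. With library totals in place of TMM, values changed sign for Fgfr3 in m6A-RIP (-0.0426 by gene, -0.0427 by row), for the Fgfr1 row that was near 0 (-0.134) and for Il6st in Igf2bp3-RIP relative to input (0.0831). That scaling moved the median of all m6A-RIP rows from 0.00 to -0.15 and of Igf2bp3 relative to input from 0.03 to 0.17. It gave 3842 rows higher and 7638 lower (5665 and 6005 with TMM), 2395 genes higher and 3766 lower in m6A-RIP (3060 and 3179), 5 and 2 genes in Igf2bp3-RIP (6 and 7), and 32 and 13 for Igf2bp3 relative to input (14 and 29).

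Without 1 library, values of uncalled results ranged through 0 for Egfr in m6A-RIP (-0.183 to 0.396 by gene, -0.123 to 0.448 by row), the same Fgfr1 row (-0.00339 to 0.05), Met in Igf2bp3-RIP (-0.229 to 0.419), Fgfr1 in m6A relative to input (-0.0746 to 0.0136) and Il6st in Igf2bp3 relative to input (-0.249 to 0.156). The cause of these changes was not tested. Over all features DESeq2 called 3039 genes in RNA (6432 in edgeR), 263 Igf2bp3-RIP peaks (24), 115 genes (13), 344 genes in m6A relative to input (578) and 67 in Igf2bp3 relative to input (43). Without 1 library edgeR called 108 to 193 Igf2bp3-RIP peaks and 39 to 73 genes. For differences from input it called 305 to 360 genes in m6A and 0 in Igf2bp3 without an input library, and 569 to 633 and 89 to 571 without a RIP library. The block called 1988 peaks and 374 genes, at least 10 counts in every library called 0 peaks (973 at an unadjusted p under 0.05), and library totals 36 peaks. Counts under 10 per library limit Fgfr2, Fgfr3, Pdgfra and Egfr in input, and 2 libraries a group limit every value. The fit that leaves out 1 library assumes that the remaining one varies like the other group.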
